A study of Mus musculus with 24 samples.

Results

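The 8 genes for nuclear and xenobiotic receptors studied here were followed across the liver H3K27ac peak lists of male and female mice of 2 strains. They are Nr1i2 (pregnane X receptor, PXR), Nr1i3 (constitutive androstane receptor, CAR), Ahr (aryl hydrocarbon receptor), Ppara (peroxisome proliferator-activated receptor alpha), Nr1h3 (liver X receptor alpha), Rxra (retinoid X receptor alpha), Esr1 (estrogen receptor alpha) and Nr3c1 (glucocorticoid receptor). A peak belonged to a receptor gene when it overlapped by at least 1 bp the gene body plus 10 kb on each side, in mm9 coordinates. The 8 members were chosen by name out of 22208 protein-coding genes on the autosomes and X, of which 15392 had a peak in the same kind of window in all 4 lists. All 8 receptor genes were among these.

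H3K27ac, acetylation of lysine 27 on histone H3, marks active promoters and enhancers, and it was measured by ChIP-seq with the ab4729 antibody. The livers came from C57BL/6J (B6), a classical laboratory strain, and CAST/EiJ (CAST), an inbred strain derived from another mouse subspecies. There were 20 livers, 5 each from B6 males, B6 females, CAST males and CAST females at 8 weeks of age, and 4 inputs, 1 per group. Sex and strain were taken from the sample titles. The strain field of the labels calls all females CAST and all males B6, which contradicts the titles of B6 females and CAST males. Each group is represented by 1 peak list merged over its livers, so values below carry no spread between animals and no difference between lists was tested. Whole liver is a mixture of cells, so a weaker mark in every cell and fewer cells that carry it cannot be told apart.

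The nuclear receptors of this group are transcription factors that bind a ligand and then act at short DNA response elements. PXR, CAR, PPAR alpha and the liver X receptor do so as partners of the retinoid X receptor, mostly at repeats of a hexamer related to AGGTCA, while the estrogen and glucocorticoid receptors bind as pairs of themselves. The aryl hydrocarbon receptor belongs to another protein family, and with its partner Arnt it binds elements with the core GCGTG. In liver these factors control drug metabolism, fatty acid oxidation, sterol and bile acid handling and responses to steroid hormones.

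The sequences shown first are those of the regions that separate the lists below, read from mm9, which is the B6 reference. Capitals mark a nuclear receptor half-site, which was searched on either strand as the hexamer AGGTCA, as its variant GGGTCA with another first base, and as its variant AGTTCA with another inner base. The first 4 are the 121 bases around the summit of each of the 4 regions called in 1 sex only, and the same sex, in both strains. The first pair was called in males, at chr15:85591541-85591661 and chr2:91029300-91029420. The other pair was called in females, at chr2:27601407-27601527 and chr10:5732785-5732905. The fifth, chr15:85607241-85607361, was called in both CAST lists and in neither B6 list.
Ppara intron, male lists: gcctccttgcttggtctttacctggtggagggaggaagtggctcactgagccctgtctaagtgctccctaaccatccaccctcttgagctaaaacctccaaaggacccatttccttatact
Nr1h3 intron, male lists: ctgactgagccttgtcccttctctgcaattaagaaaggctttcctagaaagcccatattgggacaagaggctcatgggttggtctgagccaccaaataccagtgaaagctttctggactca
Rxra intron, female lists: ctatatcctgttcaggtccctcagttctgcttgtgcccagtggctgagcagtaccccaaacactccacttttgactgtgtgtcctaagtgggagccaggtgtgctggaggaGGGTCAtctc
Esr1 intron, female lists: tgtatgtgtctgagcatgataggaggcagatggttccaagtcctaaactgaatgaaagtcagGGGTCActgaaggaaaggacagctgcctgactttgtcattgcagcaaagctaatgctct
Ppara intron, CAST lists: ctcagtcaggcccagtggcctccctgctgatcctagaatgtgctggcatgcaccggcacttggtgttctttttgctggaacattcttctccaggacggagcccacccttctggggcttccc
Both female windows held 1 half-site, with G as its first base in each, and neither male window held any. Over summit windows of the same length at all 119348 regions of the series, 20.5% held at least 1 half-site, and 26 of 140 summit windows at the receptor genes other than Nr3c1 did (18.6%). Pairs of half-sites in the same orientation with 1 to 5 bases between them were found in 0.219% of all windows and in 0 of the 140.

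The next 3 sequences are the 250 bases upstream of annotated starts, 5′ to 3′ in the direction of transcription. The Nr1h3 start Nr1h3-002 (chr2:91035309-91035558, minus strand) lies under the highest-ranked call at any of the genes. The Ppara start Ppara-006 (chr15:85602394-85602643, plus strand) is internal to the gene and lies in a cluster of short regions. The Esr1 start Esr1-004 (chr10:5636387-5636636, minus strand) lies under a region that was called in both B6 lists and in CAST males but not in CAST females.
Nr1h3-002: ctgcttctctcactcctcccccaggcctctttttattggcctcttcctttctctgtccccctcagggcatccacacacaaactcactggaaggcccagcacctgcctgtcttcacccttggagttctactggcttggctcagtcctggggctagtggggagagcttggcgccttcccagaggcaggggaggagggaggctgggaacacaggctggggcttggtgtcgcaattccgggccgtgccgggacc
Ppara-006: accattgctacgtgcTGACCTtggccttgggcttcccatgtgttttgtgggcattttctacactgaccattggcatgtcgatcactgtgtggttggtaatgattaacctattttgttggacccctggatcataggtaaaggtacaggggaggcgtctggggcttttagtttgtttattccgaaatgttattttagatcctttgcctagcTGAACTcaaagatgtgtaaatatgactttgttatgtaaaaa
Esr1-004: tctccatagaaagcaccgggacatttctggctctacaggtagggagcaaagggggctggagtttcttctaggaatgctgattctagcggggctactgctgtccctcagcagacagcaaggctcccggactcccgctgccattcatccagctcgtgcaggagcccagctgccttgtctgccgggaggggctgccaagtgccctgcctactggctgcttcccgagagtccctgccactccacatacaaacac
The Ppara window held 2 half-sites, both read on the opposite strand, and the Nr1h3 and Esr1 windows held 0. Of 70002 windows upstream of distinct starts of protein-coding genes, 31.4% held a half-site and 31.9% held GCGTG on either strand. Of 41 such windows at the receptor genes other than Nr3c1, some of which overlap, 7 held a half-site (17.1%) and 6 held GCGTG (14.6%). A match describes letters in the reference and not binding.

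The 8 windows together span 898 kb, and the lists covered 10.2%, 9.57%, 11.6% and 10.7% of them in B6 males, B6 females, CAST males, CAST females. Peaks at the receptor genes numbered 111 in the B6 male list, 120 in B6 female, 132 in CAST male and 133 in CAST female. They covered 92.0 kb, 86.0 kb, 104 kb and 96.2 kb in the same order. Males had more covered bases than females in both strains, though in B6 by little once Esr1 was left out. Without it, an alternative chosen after seeing the data, the B6 lists covered 68.1 and 67.2 kb in males and females, and Nr1i2, Ppara, Rxra and Ahr had more in B6 females. Males had fewer peaks in B6, while in CAST the numbers differed by 1 and turned with 50 kb flanks (212 in males and 205 in females) or with Rxra left out (112 and 109). In the whole lists, which held 79862, 82181, 90228 and 84645 peaks, the median peak was also wider in males than in females of each strain, at 680 against 619 bp in B6 and 607 against 578 bp in CAST. At the receptor genes the median widths were 610 and 524.5 bp in B6 males and females, and 574.5 and 542 bp in CAST males and females.

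Distal peaks, those farther than 2.5 kb from all annotated starts, made up most of the calls. Their share was 74.8% and 71.7% in B6 males and females, and 71.2% and 71.4% in CAST males and females. In the whole lists it ranged from 70.9% to 72.1%, inside the 95% exact binomial interval of each receptor share (65.7% to 82.5% for B6 males). Promoter peaks covered 36.3, 35.9, 40.6 and 35.4 kb, and distal peaks 55.7, 50.1, 63.7 and 60.9 kb, in the order B6 male, B6 female, CAST male, CAST female. Fold enrichment is the authors' ratio of ChIP pileup to background at the summit of a peak, each with 1 added. Its median at the receptor genes was 2.09, 2.08, 2.1 and 2.12 in the same order, below the whole-list medians of 2.5 to 2.57.

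**Figure D1:**
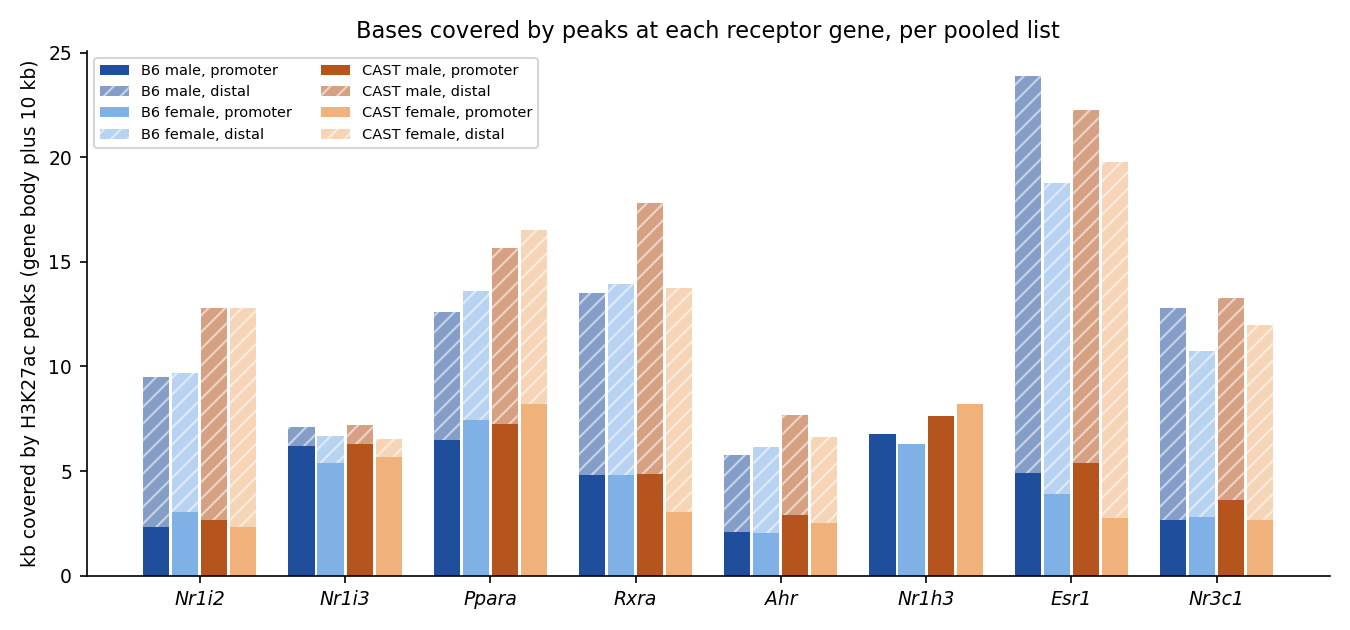
Kilobases covered by H3K27ac peaks within each receptor gene and 10 kb on either side, on the vertical axis, for the 4 pooled lists. Solid bars are promoter peaks (within 2.5 kb of an annotated start) and hatched bars distal peaks, stacked, with 1 value per list and no error bar. Esr1 had the most covered bases in every list and Nr1h3 had no distal peak.

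No receptor gene differed by 1.5-fold or more in total covered bases in any of the 4 comparisons. Among all genes with a peak in every list, 8.41% passed that fold between the sexes of B6, 9.86% between the sexes of CAST, 13.2% between males of the strains and 18.1% between females of the strains. The median ratio of female to male covered bases over all genes was 0.969 in B6 and 0.926 in CAST, so a ratio slightly below 1 was common to these lists.

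With promoter and distal peaks apart, a few genes did pass the fold. For promoter peaks it was 0 of 8 between the sexes of B6 (6.5% of all genes), 2 of 8 between the sexes of CAST (7.37%), 0 of 8 between males of the strains (9.68%) and 1 of 8 between females of the strains (13.1%). The genes were Esr1 and Rxra for the CAST sexes, both lower in females, and Rxra for the females, lower in CAST. For distal peaks it was 0 of 7 in B6 (23.5% of all genes), 0 of 7 in CAST (25.1%), 0 of 7 between males (26.5%) and 1 of 7 between females (34.4%), which was Nr1i2, higher in CAST.

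Peaks that overlapped between lists were merged into regions, of which the receptor genes held 165 out of 119348 in the series. Of the 165, 76 were called in all 4 lists (46.1%, against 40.4% of all regions) and 57 in a single list (34.5%, against 32.4%). The regions called in every list were broad, with a median width of 1272 bp, and those called in 1 list were narrow, with a median of 284 bp. Percentiles here rank a peak by its score within its own list, from 0 for the weakest to 100 for the strongest. The best call of a single-list region had a median percentile of 15.8 by score within its list, and that of a region in all lists 71.3. Of the regions called in all lists 32.9% were promoter regions, against 15.8% of those called in 1 list. The whole series showed the same pattern, with 37.5% and 13.5% promoter regions and median widths of 1360 and 295 bp.

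Regions called in only 1 sex of a strain were about as frequent at the receptor genes as elsewhere. In B6, 18 of 121 called regions were in males only (14.9%, against 17.4% of all regions) and 21 in females only (17.4%, against 17.5%). In CAST, 26 of 141 were in males only (18.4%, against 21.5%) and 21 in females only (14.9%, against 14.1%). In all, 8 regions were restricted to 1 sex in both strains, and 4 of these were in the same sex (58.1% of such regions in the series were). Of regions called in both sexes of a strain, 3 of 82 were in B6 and not CAST (3.66%, against 8.4%), and 8 of 94 were in CAST and not B6 (8.51%, against 11.8%). With lists of equal length both counts were 4.

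**Figure D2:**
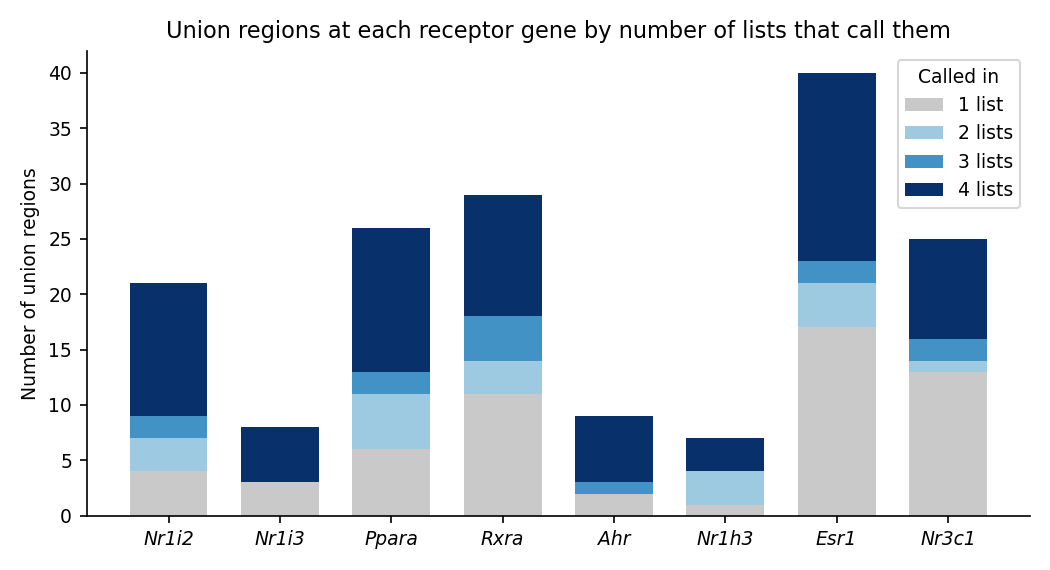
Number of merged regions at each receptor gene on the vertical axis, stacked by how many of the 4 lists call them. Nr3c1 and Esr1 had the most single-list regions, with 13 of 25 and 17 of 40, and Ahr the largest share called in all 4 lists, 6 of 9.

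At the summits, counts allowed an error to be attached. The pileup, the number of fragments at the summit, follows from a call's fold enrichment together with its p-value. With 1 summit per merged region and list, it could be solved at all 100, 120 and 115 regions called in B6 males, CAST males and CAST females and at 102 of 103 in B6 females, and each solution was whole to within 0.05. That summit is the highest-ranked one of the list within the region. Ratios between lists can therefore compare summits that lie apart. Intervals below are 95% exact Poisson intervals of that pileup, with the background taken as known. They cover counting error only, not the spread between livers, and fragments that are PCR copies are not independent. Fold enrichment differed by 1.5-fold or more at 1 of 82 regions called in both sexes of B6 (1.32% of all regions), 2 of 94 in CAST (1.84%), 5 of 84 between males of the strains (3.73%) and 3 of 85 between females of the strains (4.31%). All 3 between sexes were lower in females. The intervals did not overlap at 1, 3, 3 and 3 regions in the same order, beside 1.29%, 2.2%, 5.02% and 4.93% of all regions with intervals in both lists. These shares at the receptor genes were near those of the series, and the regions were not always those past the fold.

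Nr1i2 encodes PXR, a sensor of foreign compounds and bile acids that induces drug-metabolizing enzymes. The gene lies on the minus strand of chromosome 16 at chr16:38248409-38294910, with 1 annotated start, and its window also holds parts of Gsk3b, 4932425I24Rik and Gm15649. There were 16, 16, 19 and 18 peaks in B6 male, B6 female, CAST male and CAST female, which covered 9.52, 9.71, 12.8 and 12.8 kb. The sexes had ratios of 1.02 and 1.00, and CAST was higher, with CAST to B6 ratios of 1.34 in males and 1.32 in females. Covered bases at promoter peaks were 2.34, 3.07, 2.66 and 2.33 kb, and at distal peaks 7.17, 6.64, 10.1 and 10.5 kb, so the strain difference lay in the distal peaks.

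The PXR promoter region, chr16:38293197-38294911, was called in all lists with fold enrichments of 3.26 (2.92 to 3.62) in B6 males and 2.69 (2.39 to 3.02) in B6 females, and of 3.31 (2.97 to 3.66) and 2.94 (2.63 to 3.28) in the CAST lists. It ranked at percentiles 88.8, 82.6, 88.7 and 87.8. Between the sexes the intervals overlapped in both strains. The region that separated the strains was intragenic, at chr16:38254080-38256075, 39.8 kb from the start, and overlapped a coding exon. Fold enrichment at the highest-ranked summit of each list within it, not always at the same place, was 2.51 (1.92 to 3.25) and 2.60 (1.96 to 3.40) in B6 males and females. It was 3.98 (3.32 to 4.74) and 4.01 (3.39 to 4.72) in CAST males and females. The CAST to B6 ratio was 1.58 in males and 1.54 in females, and its percentile moved from 38.3 and 38.2 in B6 to 76.8 and 82.1 in CAST. The intervals were apart in males but met narrowly in females. A narrow intronic region 15.2 kb from the start had fold enrichments of 1.65, 1.70, 1.98 and 2.32 in the usual order, with intervals apart between females of the strains.

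The highest distal region of Nr1i2, by mean percentile among those called in all lists, intronic and 6.31 kb from the start, had fold enrichments of 2.57, 2.13, 2.31 and 2.36. An intronic region 38.4 kb from the start was missing only in B6 females and stood at percentile 45.2 in B6 males. Another, 23.1 kb from the start, was called in B6 females and CAST males, at percentiles 2.38 and 25.9. The single CAST-only region, 22 kb from the start, was at percentiles 15.8 and 2.

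Nr1i3 encodes CAR, the receptor through which phenobarbital-like inducers raise Cyp2b enzymes. It is the shortest of the genes (6.73 kb, plus strand, chr1:173144101-173150832), and its window also takes in Apoa2, Tomm40l and Fcer1g. Peaks numbered 5, 10, 8 and 7 and covered 7.11, 6.70, 7.19 and 6.55 kb in B6 male, B6 female, CAST male and CAST female. These amounted to 24.5% to 26.9% of the window, which placed Nr1i3 between the 98.9th and 99.2th percentile of genes by covered share. Peak number therefore varied up to 10 against 5 while covered bases stayed close to each other.

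The CAR promoter region, chr1:173143284-173146065, had fold enrichments of 2.98 (2.61 to 3.39), 2.93 (2.61 to 3.28), 3.51 (3.14 to 3.93) and 3.46 (3.09 to 3.87) in the usual order. CAST was 1.18 times B6 in both sexes, with overlapping intervals, and the sexes were within 2% of each other (ratios 0.982 and 0.985). A distal region 10.5 kb upstream, the highest distal one by mean percentile, gave 2.97, 3.22, 3.33 and 3.18. The sex-restricted calls of this window, at percentiles 42.8 (CAST male) and 36.9 (B6 female), lay outside the gene, within 2.5 kb of other starts. Another call, 14.6 kb from the start and called in B6 females only, had a fold enrichment of 1.07 yet a percentile of 88.9, and gave no pileup solution.

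Ahr encodes the aryl hydrocarbon receptor, which senses dioxins and related compounds and induces Cyp1 enzymes. It is at chr12:36182646-36219710 on the minus strand. Peaks numbered 10, 9, 9 and 10 and covered 5.77, 6.17, 7.66 and 6.63 kb, the fewest bases of any receptor in both B6 lists. CAST males were the highest, at 1.33 times B6 males, while CAST females were 1.07 times B6 females. Under a stricter limit on the q-value (−log10 of at least 5) the male strain ratio reached 1.74.

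Enrichment at the Ahr promoter, chr12:36218621-36220054, had intervals apart between the sexes of CAST. It was 3.85 (3.46 to 4.27) and 3.65 (3.28 to 4.05) in B6 males and females, and 4.29 (3.88 to 4.72) and 2.93 (2.59 to 3.30) in CAST males and females. The female to male ratio was 0.948 in B6, with overlapping intervals, and 0.683 in CAST, with intervals apart. The pileups behind these values were 358, 351, 406 and 272 fragments over backgrounds of 92.3, 95.5, 93.9 and 92.2. An intronic region at chr12:36186038-36186958, 33.2 kb from the start, followed the same order with 2.71 (2.23 to 3.26), 2.49 (2 to 3.06), 3.33 (2.76 to 3.99) and 2.1 (1.60 to 2.71). Its ratio was 0.920 in B6 and 0.631 in CAST, where the intervals were apart by a small margin. The second promoter-class region, 2.94 kb from the start, gave 2.09, 1.93, 2.56 and 2.18, with overlapping intervals between the sexes. Over the 7 regions of Ahr called in both sexes of CAST the median female to male ratio was 0.850, beside 0.956 over all regions of the series. Whether the strains differ in the sex ratio at Ahr was not tested. Ahr had no region restricted to 1 sex in CAST, and the best one in B6, 4.53 kb from the start, was missing only in B6 males and reached percentile 45.3 in B6 females.

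Ppara encodes PPAR alpha, the fatty acid receptor that drives peroxisomal and mitochondrial oxidation. It is at chr15:85565413-85633249 on the plus strand, with 6 annotated starts, 5 within 1.148 kb of each other and 1 at 37.2 kb. Peaks numbered 18, 20, 23 and 22 and covered 12.6, 13.6, 15.7 and 16.5 kb. Female to male ratios were 1.08 in B6 and 1.06 in CAST, the latter turning to 0.954 with 50 kb flanks, and CAST was above B6 in both sexes (1.24 in males and 1.21 in females).

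The promoter region around the first start, chr15:85564515-85565751, had fold enrichments of 2.74 (2.47 to 3.04), 2.54 (2.28 to 2.82), 2.47 (2.24 to 2.73) and 2.29 (2.04 to 2.56). The adjoining one, chr15:85566111-85568002, gave 2.36, 2.27, 2.45 and 2.22. All intervals overlapped between sexes and between strains. At the internal start Ppara-006 the main region, chr15:85602686-85603886, gave 2.37, 2.31, 2.19 and 2.04, and within 10 kb of it 3 regions were called in both CAST lists and in neither B6 list. A piece 0.323 kb from that start was called in CAST females alone, at percentile 67.7 and a fold enrichment of 2.09 (1.83 to 2.39), the highest-ranked sex-restricted call of the CAST lists at any receptor gene. This piece joins the main region, which all lists call, when peaks up to 500 bp apart are merged.

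Some Ppara regions were called in some lists and not in others. The CAST-only intronic region chr15:85606611-85607410, whose summit sequence is printed above, had fold enrichments of 1.98 (1.72 to 2.26) in males and 1.90 (1.64 to 2.18) in females and percentiles of 61.1 and 56.6. The male-only intronic region chr15:85591500-85591791 was weaker, at 1.75 (1.4 to 2.16) in B6 and 2.02 (1.63 to 2.46) in CAST, percentiles 16.2 and 37.4. A region 7.43 kb into the gene went the other way in the strains, called in B6 males (percentile 48.7) and CAST females (percentile 17.5). The highest distal region, chr15:85616937-85619251, overlapped a coding exon and was called everywhere with 2.78 (2.33 to 3.30), 3.31 (2.84 to 3.83), 3.99 (3.48 to 4.56) and 3.74 (3.22 to 4.33). Its CAST to B6 ratio was 1.44 in males, with intervals apart, and 1.13 in females. The tallest region of the window, at 4.60, 5.46, 4.47 and 4.72, lies 76.4 kb from the first start, at the start of 2210021J22Rik.

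Nr1h3 encodes liver X receptor alpha, which answers to oxysterols and controls cholesterol efflux and lipogenesis. At chr2:91024218-91042991 on the minus strand it sits among Madd, Acp2, Ddb2, Gm13783 and U6, and no peak of its window was farther than 2.5 kb from an annotated start. Peaks numbered 4, 3, 6 and 7 and covered 6.76, 6.30, 7.66 and 8.21 kb. CAST to B6 ratios were 1.13 in males, which turned to 0.990 with 50 kb flanks, and 1.3 in females.

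Nr1h3 held the highest-ranked call of the 8 genes in each list. The region over the starts of its coding transcripts, chr2:91033542-91036022, had fold enrichments of 5.49 (4.98 to 6.03), 5.70 (5.15 to 6.28), 5.26 (4.79 to 5.76) and 4.74 (4.25 to 5.26), at percentiles 97.6, 97.3, 96.5 and 95.8. The region at the most upstream start, shared with Acp2, gave 4.90, 5.21, 5.24 and 4.65. Intervals overlapped in all 4 comparisons at both. Base by base, the B6 male and female lists shared 91.6% of the bases either covered in this window, the highest of any receptor and comparison, beside 64.3% over the autosomes and X. Short regions of the window differed between lists. A male-only intronic one, chr2:91029150-91029467, had 1.74 (1.36 to 2.2) in B6 and 1.89 (1.51 to 2.33) in CAST at percentiles 9.74 and 26.5. A CAST-only one, chr2:91015516-91016706, at an exon and a start of Madd, had 2.77 (2.11 to 3.57) in males and 3.57 (2.86 to 4.41) in females at percentiles 44.5 and 68.0.

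Rxra encodes the shared partner of PXR, CAR, PPAR alpha and the liver X receptor. It is at chr2:27531960-27618477 on the plus strand with 6 starts, and no other gene lies in its window. Peaks numbered 18, 20, 20 and 24 and covered 13.5, 14, 17.8 and 13.8 kb, so CAST males stood above the other 3 lists. Distal bases were 8.69, 9.13, 12.9 and 10.7 kb. Promoter bases were 4.83, 4.83, 4.86 and 3.06 kb, lower in CAST females with ratios of 0.630 to CAST males and 0.633 to B6 females.

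Fold enrichment at the Rxra promoter was low beside its pileups, which were the highest of the receptor genes in every list but B6 female, where an Nr3c1 promoter region had 425 fragments. The region chr2:27532843-27536351 had 460, 424, 598 and 450 fragments at its summits, over backgrounds of 223, 203, 262 and 212, which gave fold enrichments of 2.06 (1.88 to 2.26), 2.08 (1.89 to 2.29), 2.27 (2.1 to 2.46) and 2.12 (1.93 to 2.32). Its percentile was 81.0, 80.4, 87.0 and 83.1, with all intervals overlapping. Its widest peak, of the promoter class in each list, spanned 2917, 3192, 3262 and 2286 bp. At the internal start Rxra-005, 63.8 kb from the first, 1187, 1130, 1111 and 349 bp within 1 kb were covered, so CAST females had the fewest promoter bases at both places. Fold enrichments there were 2.01 (1.70 to 2.37), 2.15 (1.81 to 2.53), 2.16 (1.83 to 2.52) and 1.87 (1.54 to 2.26), with overlapping intervals.

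A distal region 4.31 kb upstream of Rxra, chr2:27526618-27528677, was the 1 region with intervals apart between the sexes of B6, higher in females. Fold enrichments were 1.82 (1.60 to 2.07), 2.45 (2.17 to 2.75), 1.64 (1.45 to 1.85) and 1.86 (1.62 to 2.13). The female to male ratio was 1.34 in B6 and 1.13 in CAST, where the intervals overlapped. CAST females were at 0.761 of B6 females, with intervals apart. The highest distal region called in all lists was intragenic, 82.7 kb from the start, at 3.03, 3.35, 2.85 and 2.96. The female-only region chr2:27601218-27601523 was faint, with 1.65 (1.37 to 1.98) in B6 and 1.41 (1.14 to 1.72) in CAST, the latter at percentile 0.174. An intronic region 38.6 kb from the start was missing in B6 females alone, at percentiles 44.8, 69.4 and 77.1 in the others. Rxra had the lowest base overlap between CAST sexes, 50.3%, and between females of the strains, 43.4%.

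**Figure D3:**
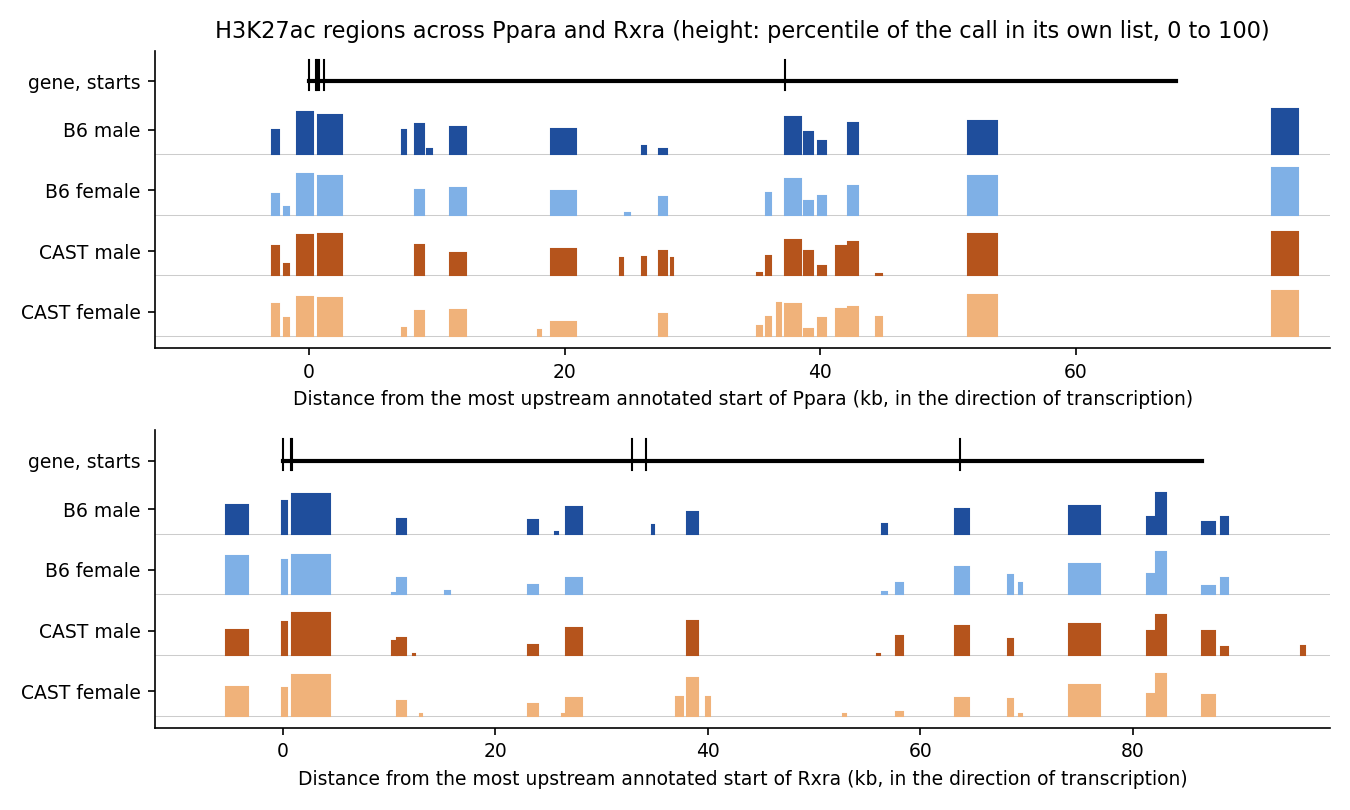
Regions across Ppara and Rxra by distance in kb from the most upstream annotated start, 1 track per pooled list. Each bar spans the merged region and its height is the percentile of the call within its list (0 to 100, the weakest drawn at a minimum height), and the top line shows the gene with its annotated starts as ticks. The CAST tracks show more pieces around the internal Ppara start at 37.2 kb, and the Rxra region at 38.6 kb is absent in B6 females.

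Esr1 encodes estrogen receptor alpha, the main estrogen receptor of hepatocytes. It is the longest gene, 394 kb at chr10:5340927-5734948 on the minus strand, with 10 starts, so it makes up 414 kb of the 898 kb. Peaks numbered 28, 28, 26 and 27 and covered 23.9, 18.8, 22.3 and 19.8 kb. Females were below males in both strains, with ratios of 0.785 in B6 and 0.888 in CAST, against medians over all genes of 0.969 and 0.926. Only 4.53% to 5.77% of the window was covered, between the 26.99th and 35.2th percentile of genes. Nr3c1, at 0.839 and 0.903, and Nr1i3, at 0.943 and 0.911, were also lower than the all-gene median in both strains. For Nr1i3 this rested on the flanks, since the gene body alone gave 1.10 in B6 and 1.06 in CAST and 50 kb flanks gave 1.02 in B6. For Nr3c1 the CAST ratio was 1.07 with a −log10 q-value of at least 5 and 1.04 with lists cut to equal length.

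The promoter region over the upstream starts, chr10:5733336-5735265, had fold enrichments of 4.61 (4.03 to 5.24) and 3.93 (3.45 to 4.46) in B6 males and females, and of 5.07 (4.46 to 5.73) and 4.04 (3.57 to 4.56) in CAST males and females. Females were lower in both strains (0.853 and 0.798), with intervals that overlapped in B6 and only just in CAST. Beside it, 1.99 kb into the gene, lies the female-only region chr10:5732764-5733160 with 1.59 (1.3 to 1.92) in B6 and 1.62 (1.34 to 1.94) in CAST, at percentiles 12.8 and 19.6. It joins the promoter region, which all lists call, when peaks up to 500 bp apart are merged, and is then no longer female-only.

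At 2 internal Esr1 starts covered bases differed between the sexes, with some calls near the bottom of their list. Around Esr1-004, 98.6 kb from the first start and annotated as coding, peaks covered 690, 369, 390 and 0 bp within 1 kb in B6 male, B6 female, CAST male and CAST female. Around Esr1-010, at 101.1 kb, they covered 1504, 871, 1410 and 466 bp. In both strains the female list had fewer covered bases than the male list at both starts. Fold enrichments at the first were 2.89 (2.32 to 3.55), 2.28 (1.73 to 2.95) and 1.86 (1.38 to 2.45), with no call in CAST females. The B6 intervals overlapped, and the CAST male call was at percentile 5.62. Fold enrichments at the second were 2.92 (2.35 to 3.58), 2.74 (2.14 to 3.45), 2.60 (2.04 to 3.27) and 1.72 (1.26 to 2.31), with a CAST female to male ratio of 0.661 and overlapping intervals. The CAST female call there was at percentile 0.755. The 2 starts at 311 and 325 kb had no peak within 1 kb in any list.

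Distal regions of Esr1 showed a further gap in B6. The intronic region chr10:5470113-5471592, 264 kb from the first start, had 3.27 (2.56 to 4.11) and 2.08 (1.5 to 2.82) in B6 males and females, and 3.31 (2.59 to 4.17) and 3.70 (2.87 to 4.70) in CAST males and females. B6 females were the low list, at 0.637 of B6 males with overlapping intervals, while CAST females were 1.78 times B6 females with intervals apart. The pileups behind these values were 71, 40, 70 and 65. Another intronic region, 333 kb from the first start, had 2.58 (1.92 to 3.40), 2.64 (1.98 to 3.46), 3.97 (3.13 to 4.97) and 2.97 (2.23 to 3.88), with a male CAST to B6 ratio of 1.54 and overlapping intervals. All 3 B6-only regions of the receptor genes were intronic. They lay in Esr1 at 175 kb (percentiles 10.8 and 18.7 in males and females) and 122.2 kb (43.2 and 17.9), and in Rxra at 56.6 kb (20.6 and 5.13). The highest distal region in all lists, 9.63 kb from the start, gave 3.38, 3.26, 3.14 and 2.61. One region 7.67 kb from the start was called in CAST females alone, at percentile 57.0, and the best B6 sex-restricted call, in males at 55.8 kb, was at percentile 26.8.

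**Figure D4:**
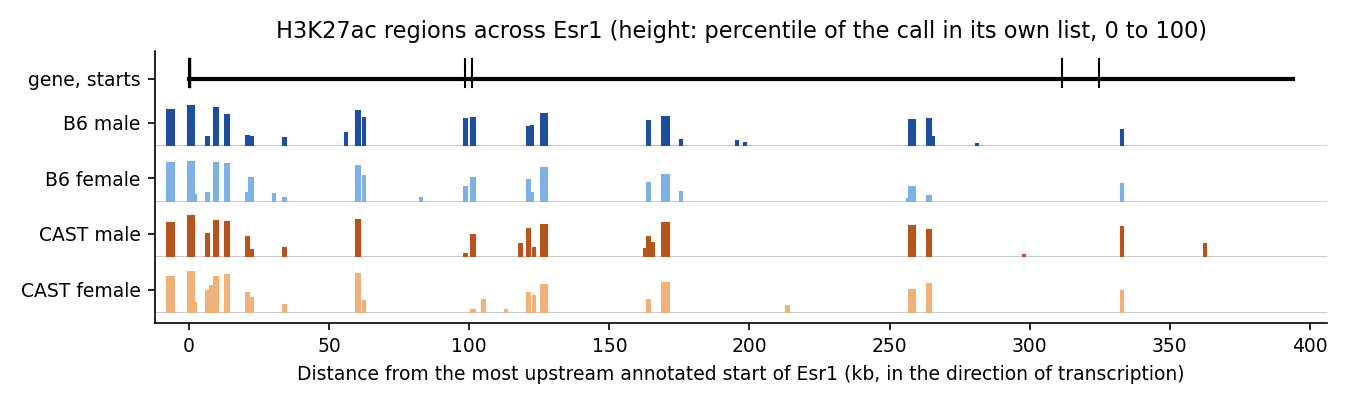
Regions across Esr1 by distance in kb from its most upstream start, drawn like the other map with 1 track per pooled list and bar height as the percentile of the call within its list. The pair of bars at 98.6 and 101.1 kb shrinks from B6 males to CAST females, and the bar at 264 kb is low in B6 females only.

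Nr3c1 encodes the glucocorticoid receptor, which carries the stress and fasting response to genes such as Tat and Pck1. It is on the minus strand of chromosome 18, 80.8 kb long with 8 starts and no other gene in its window. Peaks numbered 12, 14, 21 and 18, more in CAST, and covered 12.8, 10.8, 13.3 and 12 kb. The added CAST peaks were narrow, and covered bases in CAST were 1.04 times B6 in males and 1.11 times in females. Neither direction held throughout, since the male ratio was 0.882 with lists of equal length and 0.909 with a −log10 q-value of at least 5, and the female ratio 0.925 with 50 kb flanks. The 2 promoter regions called in all lists, 2.04 and 0.214 kb from the first start, gave fold enrichments of 2.86, 3.07, 3.31 and 3.44, and of 3.44 (3.11 to 3.8), 3.66 (3.32 to 4.03), 3.84 (3.52 to 4.18) and 3.68 (3.30 to 4.08). Intervals at the second overlapped throughout.

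One intronic region of Nr3c1, 48.6 kb from the first start, was set apart by CAST males. It had 2.78 (2.40 to 3.20), 3.01 (2.59 to 3.48), 4.58 (4.05 to 5.16) and 3.06 (2.64 to 3.53), with CAST males apart both from CAST females (ratio 0.669) and from B6 males (1.65). A region upstream of the first start, at -6.92 kb, gave 2.99 (2.39 to 3.70), 3.50 (2.92 to 4.16), 4.51 (3.69 to 5.48) and 4.46 (3.64 to 5.41), with CAST to B6 ratios of 1.51 in males and 1.27 in females and intervals that overlapped. The highest distal region in all lists, 44.2 kb from the start, was close to level at 3.74, 4.2, 4.33 and 3.92. Of the 13 single-list regions the highest was in CAST females, 32.4 kb from the start at percentile 46.1. The 2 internal starts, 4.06 and 4.07 kb from the first, had a peak within 1 kb in CAST males only, at percentile 4.56.

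**Figure D5:**
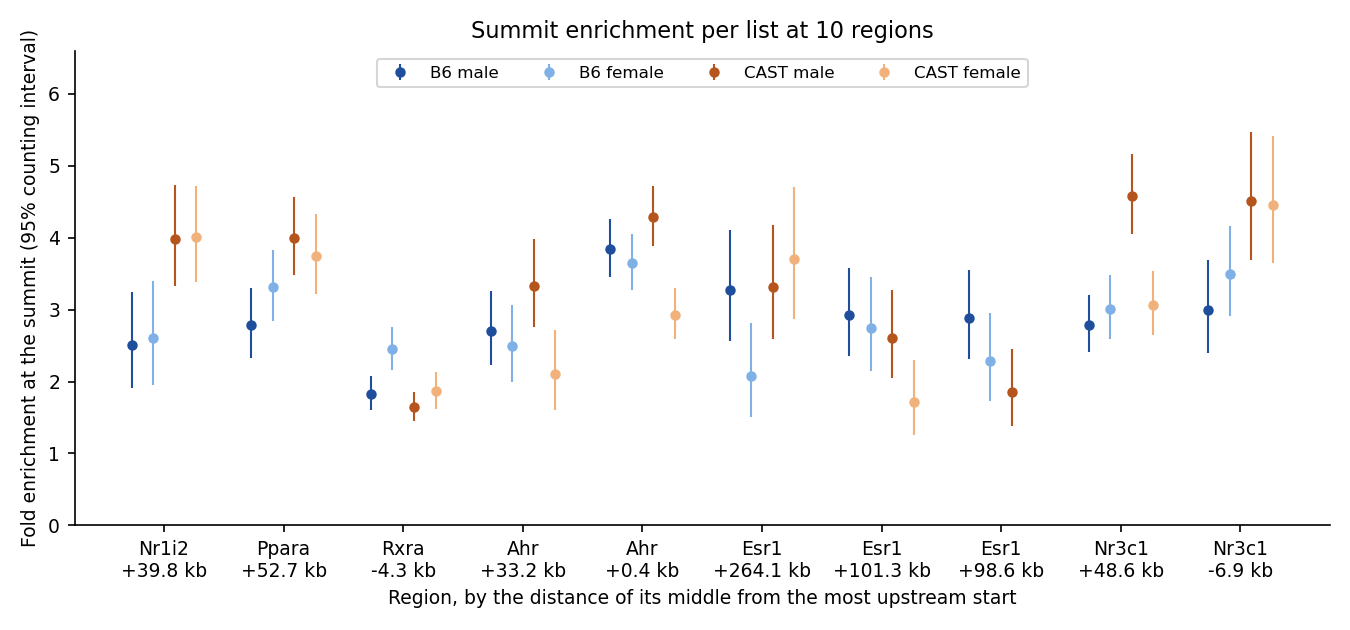
Fold enrichment at the summit on the vertical axis for 10 regions, labelled by gene and distance from the most upstream start, with 1 point per pooled list and 95% exact Poisson intervals of the pileup as bars. CAST females lie below CAST males with intervals apart at both Ahr regions and at the Nr3c1 region at 48.6 kb, B6 females lie above B6 males at the Rxra region, and both CAST lists lie above the B6 lists at Nr1i2. Each point is the highest-ranked summit of its list within the region, which can lie at another place than in the other lists.

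Annotated starts summarise the promoters. Of 49 distinct starts of the 8 genes, 40 had a peak within 1 kb in all lists (50.8% of the starts of all protein-coding genes did), 5 had none in any list (40.1%) and 4 varied (9.11%). Those that varied were 1 start of Rxra (B6 males only), 1 of Esr1 (absent in CAST females) and 2 of Nr3c1 (CAST males only). Starts of a gene often lie close together and share a call, so they are not independent. The 7 starts of Nr1i3, for example, lie within 0.379 kb. All 8 genes had a peak in every list, while the starts of all genes include those of genes without one. The shares are therefore not like for like.

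Related genes were described from lists by their counts past 1.5-fold in covered bases. Of 42 other nuclear receptor genes, 36 had a peak in every list. Between the sexes 3 were higher and 1 lower in B6 females, and 2 higher and 2 lower in CAST females, with median ratios of 0.964 and 0.870 (8.41% and 9.86% of all genes passed the fold). Between strains 4 were higher and 1 lower in CAST males (13.2% of all genes), and 4 higher and 4 lower in CAST females (18.1%). Esrrg, an orphan receptor of oxidative metabolism, was higher in females of both strains with 13.4, 23.4, 13 and 21 kb in the usual order (ratios 1.74 and 1.61). Over all genes, 0.481% were higher in females of both strains past this fold and 1.23% higher in males of both. None of the 19 partners and coregulators, such as Arnt and Ncoa1, passed the fold between the sexes in either strain (median ratios 0.952 and 0.948), and between strains only Arnt in males did, at 0.628.

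Among 33 known target genes, 31 had a peak in every list, and the counts below cover only these. Cyp4a10 was left out because CAST males had no peak there. It had 0.959, 2.099, 0 and 1.72 kb in the usual order, more in the female list of both strains. Cyp1b1, also left out, had 0.415, 0.362, 0.319 and 0 kb, less in the female list of both strains. Cyp2b10, the classical CAR target, was higher in females of both strains with 4.34, 7.30, 1.28 and 5.63 kb (ratios 1.68 and 4.40). Of the 31, Cyp3a25 was also higher in females of B6, at 2.7, and Cyp4a14 in females of CAST, at 4.74. Cyp3a11 was lower in CAST females at 0.582. These are 2 and 3 of the 31 in B6 and CAST, beside the 8.41% and 9.86% of all genes. Between males of the strains 2 targets were higher in CAST, Ugt1a1 at 5.19 and Cyp3a25 at 3.70, and 3 were lower, Cyp4a14 at 0.237, Cyp2b10 at 0.295 and Fgf21 at 0.663. Between females Ugt1a1 was higher in CAST at 4.94, and Fgf21 at 0.588, Nqo1 at 0.608 and Plin2 at 0.627 were lower. These are 5 and 4 of the 31, beside 13.2% and 18.1% of all genes. The Cyp and Ugt enzymes belong to families of near-identical neighbours, where only uniquely mapped reads were kept, and Ugt1a1 shares its gene body with other Ugt1a genes.

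By the shape of the 4 covered-base values, the receptor gene nearest to each member among 27 others with at least 2 kb in every list was found by Euclidean distance of log2 values after removal of each gene's mean. Nr3c1 was nearest to Hnf4a (distance 0.0162; Hnf4a had 16.5, 14, 17.1 and 15.6 kb), and Nr1i3 to Rxrb (0.0287). Esr1 was nearest to Nr3c2 (0.105), Rxra to Nr0b2 (0.141) and Nr1h3 to Rarb (0.182). Ahr to Nr6a1 (0.205), Ppara to Nr4a3 (0.287) and Nr1i2 to Rarb (0.287) were looser.

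The liver label was checked against marker genes. The hepatocyte marker Alb had 8, 7, 11 and 7 peaks in the usual order, and Serpina1a had none in any list. All 3 endothelial markers, Stab2 among them, had peaks in every list, as did 1 of 3 stellate and 2 of 3 cholangiocyte markers. Kupffer and lymphocyte markers were at or near 0, with at most 2 peaks per list at Clec4f. CAST to B6 ratios of covered bases at the endothelial markers were 1.19 and 1.41 in males and females for Stab2, 0.914 and 0.764 for Pecam1, and 1.10 and 0.972 for Clec4g. At the cholangiocyte markers they were 2.75 and 3.24 for Epcam, which had 0.566, 0.450, 1.56 and 1.46 kb in the usual order, and 0.744 and 0.911 for Sox9, while Krt19 had no peak. At the stellate marker Reln they were 0.892 and 0.676. Female to male ratios in B6 and CAST were 0.838 and 0.993 for Stab2, 0.894 and 0.748 for Pecam1, 0.883 and 0.779 for Clec4g, 0.795 and 0.939 for Epcam, 0.631 and 0.773 for Sox9, and 1.06 and 0.803 for Reln. The endothelial and cholangiocyte values in B6 were below the all-gene median of 0.969, as was Alb at 0.828, and Alb was at 0.822 in CAST. The part of other cell types in the results above was not tested.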

How the data were processed

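H3K27ac ChIP-seq of 20 livers and 4 inputs was analysed from 4 pooled peak lists, 1 per sex and strain, grouped by sample title. As the methods state, the authors kept uniquely mapped reads (Bowtie2), aligned B6 reads to mm9 and CAST reads to a custom CAST genome converted to mm9, called peaks with MACS2 over input and removed blacklisted regions. The deposited lists give a score per peak, a fold enrichment (ratio), −log10 p-values, −log10 q-values and the summit offset. Converted CAST coordinates can shift or split a peak. Depth per liver is not in the lists. Genes, starts and exons came from the GENCODE annotation of mm9 and sequences from the mm9 genome. Here peaks were assigned to windows, covered bases counted, overlapping peaks (1 bp) merged into regions, and scores ranked within each list as percentiles. Pileups were solved from fold enrichment and p-value, and code was tested on simulated data. Analyses used Python 3.11.15 with pandas 2.3.3, numpy 2.4.6, scipy 1.17.1 and matplotlib 3.10.9. There is 1 list per group, so no test was made. Every gene was named in every list, with regions by rule: promoters, the highest distal region, regions restricted to the same sex in both strains, the best region restricted to 1 sex of each strain, strain-restricted regions in the top 50% of a list, and related genes past 1.5-fold in both strains. Other named regions and related genes were chosen after their values were seen. Members and gene lists were chosen with earlier results of these data known. Alternatives were other windows, thresholds, list lengths, overlaps and promoter distances. The count over the hepatocyte markers is not reported here.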

Additional observations from a re-analysis of the deposited data

Results flagged for a closer look

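There were 4 regions at the receptor genes called in opposite sexes in the 2 strains, which is a difference between groups that was not tested, since each value is 1 pooled list. At Nr1i2, 49.1 kb from the start, the female list minus the male list was 220 covered bases in B6 and -276 in CAST, and 23.1 kb from the start it was 284 in B6 and -398 in CAST. At Rxra, 10.5 kb from the first start, it was 289 in B6 and -502 in CAST. At Ppara, 7.43 kb from the first start, it was -258 in B6 and 287 in CAST. All 4 regions lie outside promoters, and in B6 females the 3 calls there were at percentiles 4.07, 2.38 and 1.13 of the list.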

How the results depend on the processing

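Each group is 1 pooled list, so the values describe these lists and not the spread between livers, and the lists do not give read depth per liver. No paired analysis was possible because each list merges its 5 livers. Ratios of peak numbers and of covered bases over the 8 genes stayed within the binomial interval of the peak numbers under every window, threshold, list length and left-out gene tried. For covered bases that interval was shifted to their ratio. It treats peaks as independent, and the alternatives reuse many of the same peaks. Staying inside that interval therefore does not measure how firm the ratios are. Of 217 alternatives for the summary values, 193 changed by less than that interval or 1.5-fold, and 24 moved. With peaks up to 500 bp apart merged, regions restricted to B6 females fell to 12, CAST males to 17, CAST females to 10, B6 to 1 and CAST to 5. Under a 50% reciprocal overlap, counted over peaks, the numbers were 43 and 53 for B6 males and females, 55 and 56 for CAST males and females, 7 for B6-only and 45 shared by all lists. With a −log10 q-value of at least 5 they were 11 for B6 males and 12 for B6 females, and with equal list lengths CAST-only and B6-only regions were 4 each. With 50 kb flanks, B6 female regions were 32, CAST male regions 44, CAST-only regions 15 and regions in all lists 120. Chosen after seeing the data, leaving out Ppara left 5 CAST-only regions and leaving out Esr1 left 1 B6-only region. Distal shares in CAST males and females were 78.8% and 78.9% with promoters within 1 kb, and 80.3% and 79.7% with only the gene's own starts. Of 160 alternatives for single genes, 1 crossed 1.5-fold, Ahr between males under the stricter q-value, at 1.74. Moves with window or overlap follow from counting more, fewer or joined regions, and the cause of the others was not tested.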
